A study of Mus musculus with 20 samples.

Results

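The laminin chain genes followed here were Lama2, Lama3, Lama4 and Lama5 (α chains), Lamb1, Lamb2 and Lamb3 (β chains) and Lamc1 and Lamc3 (γ chains). They were chosen by name, as the rows of the deposited table that carry these symbols, and made up 9 of its 38924 genes. The table came from the livers of 20 male mice labelled C57/BL6 (C57BL/6J in the study's methods), 5 per group. Wild-type (WT) mice and mice labelled TSP-1 null (null mice below), a purchased strain with a germline knockout of Thbs1 that affects every tissue, were bought at 5 weeks of age. They received control chow or CDAHFD for 12 weeks. CDAHFD is a high fat diet without choline, with limited methionine and with L-amino acids in place of protein. Control chow gave the groups NDWT (wild type) and NDKO (null), and CDAHFD the groups HFWT and HFKO, and each library is named by its group and mouse number. Differences between the purchased strains other than Thbs1 and the genotype cannot be told apart.

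A laminin is a cross-shaped trimer of an α, a β and a γ chain that is put together inside the cell and secreted into basement membranes, the thin sheets on which epithelia, endothelia, muscle and nerve rest. The α chain carries most of the sites that bind integrins and dystroglycan, and the short arms of the chains join to form the polymer. In healthy liver, bile ducts and larger vessels lie on a basement membrane, whereas the sinusoids lack a continuous one, and basement membrane is laid down along sinusoids as fibrosis advances.

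The upstream sequences of 3 chain genes that differed in diet response are shown because the most frequent motif looked for was unevenly spread over them. Those of Lama2 and Lamb2 are not shown, and both genes rose without this motif before their start site. A link between the motif and the diet response was not tested. Each is the stretch directly before the gene start given in the table, from RefSeq on GRCm38.p6, on the strand of the gene and 5′ to 3′. Capitals mark GGGCGG, the GC box bound by SP family factors, or its reverse complement, and in Lamb3 they mark CAGACA, a sequence bound by SMAD factors, or its reverse complement.
Lama5 (chr2:180225860-180226109, minus strand): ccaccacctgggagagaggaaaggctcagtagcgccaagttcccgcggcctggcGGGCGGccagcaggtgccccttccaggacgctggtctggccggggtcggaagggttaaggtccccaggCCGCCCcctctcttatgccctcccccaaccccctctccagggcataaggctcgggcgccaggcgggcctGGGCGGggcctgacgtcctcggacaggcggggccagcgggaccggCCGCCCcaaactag
Lamb1 (chr12:31265043-31265233, plus strand): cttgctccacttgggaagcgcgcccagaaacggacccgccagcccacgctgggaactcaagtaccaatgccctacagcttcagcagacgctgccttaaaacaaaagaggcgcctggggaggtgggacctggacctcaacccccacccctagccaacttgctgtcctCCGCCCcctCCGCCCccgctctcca
Lamb3 (chr1:193301744-193301956, plus strand): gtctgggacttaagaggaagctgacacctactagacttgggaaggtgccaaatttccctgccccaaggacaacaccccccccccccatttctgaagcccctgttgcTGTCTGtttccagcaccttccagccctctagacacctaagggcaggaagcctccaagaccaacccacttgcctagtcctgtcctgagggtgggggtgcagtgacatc

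Of the laminin chain genes, 5 had a window in the RefSeq promoter table that could be used, and these were Lama2, Lama5, Lamb1, Lamb2 and Lamb3. Over the RefSeq windows of 300 bases, GGGCGG was found on either strand in 35.7% of 32851. Lama5, which rose on CDAHFD, held 4 copies, and Lamb1, which also rose, held 2. Lama2, which rose as well, held 1, located 17 bases after its start site, while Lamb2, which rose, and Lamb3, which fell, held none. CAGACA was present in 21% of windows, and among the 5 genes it was found once in Lamb2 and once in Lamb3. The AP-1 motif TGANTCA (7.81% of windows), the TEAD motif GGAATG (14.7%) and the TATA box TATAAA (13.6%) were in none of the 5 windows. No match overlapped another. The GC content of the stretches before the gene start was 72.4% for Lama5, 63.9% for Lamb1, 57.3% for Lamb3, 47.2% for Lama2 and 43.6% for Lamb2.

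Levels are given in FPKM, fragments per kilobase of gene length scaled to the fragments assigned to genes in the library, so that genes of different lengths can be set side by side. Libraries held 15641545 to 23276322 fragments (median 18950482.5), and 3 fragments on a gene of 1 kb stand for 0.129 to 0.192 FPKM. The laminin genes are long, from 4365 bases for Lamb3 to 12068 bases for Lama4, and the lowest value in any library, 0.120 FPKM of Lama2, still rested on 20 fragments. Values are means ± SD over 5 mice. Differences were tested with limma on log2(FPKM + 0.1) across 14524 genes, and a gene was called when its Benjamini-Hochberg adjusted p (FDR) was under 0.05 and its absolute log2 fold change (log2FC) above 0.58. Thbs1, the gene knocked out in the null mice, was not lower in NDKO than in NDWT. It was 0.197 FPKM in NDWT and 1.3 in NDKO, with all 5 NDKO libraries above all 5 NDWT libraries, and 4.62 in HFWT and 3.44 in HFKO. The study does not state which part of the gene the knockout removes, and transcript of any remaining part would still be counted. These values therefore do not settle whether the labels hold. The genotype names below are therefore those of the library labels. Across all genes the median log2FC of CDAHFD against control diet was 0.53 in WT and 0.5 in null mice, so a gene that moved with the bulk of genes has a log2FC near these values rather than near 0.

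In WT mice, 7 of the 9 chain genes were higher on CDAHFD than on control diet and 2, Lama3 and Lamb3, were lower. The same genes were called in the same directions in null mice. Of all genes tested, 44.1% were called higher and 4.62% lower in WT, and 41.9% higher and 4.00% lower in null mice. This balance depended on scaling: with median of ratios scaling 3299 genes were called higher and 2242 lower in WT, in place of 6412 and 671, and with quantile normalization 2738 and 2359. In null mice the counts were 6088 and 581, and 3225 and 1980, and 2690 and 1993, in the same order. The median log2FC of the 9 genes was 1.88 in WT and 1.48 in null mice. All 5 CDAHFD libraries lay beyond all 5 control libraries for 9 of 9 genes in both genotypes, against 56.2% of all genes in WT and 57.8% in null mice. The members were not chosen for these values, but earlier results of these data were known when they were chosen. Genes were tested when above 0.5 FPKM in at least 5 libraries. Lama2 passed only through CDAHFD libraries and Lama3 only through control libraries, and Lamc3 would not have passed on control libraries alone. For these genes the filter and the diet difference are not independent. Without the filter, all 9 were called in each genotype, 7 higher and 2 lower.

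**Figure D1:**
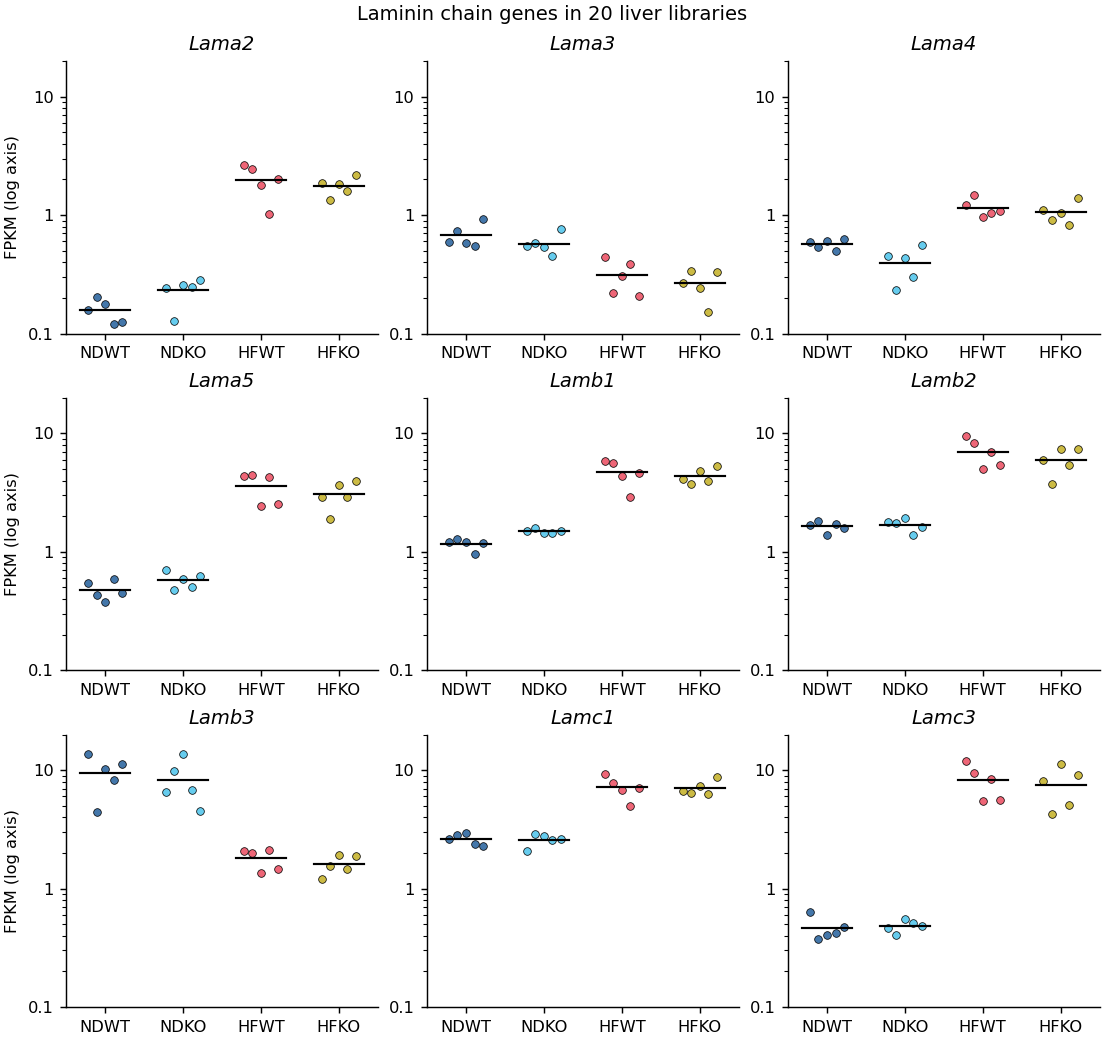
FPKM of the 9 laminin chain genes on a log axis, with 1 point per library, 5 libraries per group, and a horizontal line at the group mean. The CDAHFD groups HFWT and HFKO lie above the control groups for 7 genes and below them for Lama3 and Lamb3, and Lamc3 shows the widest separation, with means of 0.461 in NDWT and 8.19 in HFWT.

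Lamc3 encodes the γ3 chain, which is known from brain, retina and other sites and can replace γ1 in the trimer. In FPKM, Lamc3 was 0.635, 0.374, 0.406, 0.421 and 0.469 in NDWT 1 to 5 and 12, 9.42, 5.5, 8.46 and 5.61 in HFWT 1 to 5. It was 0.461, 0.405, 0.553, 0.514 and 0.487 in NDKO 1 to 5 and 8.05, 4.24, 11.4, 5.07 and 9.08 in HFKO 1 to 5. The groups of the 2 diets were far apart, and HFWT1 and HFKO3 were the high libraries of their groups. Lamc3 was 14.3-fold higher on CDAHFD in WT (log2FC 3.84, SE 0.24, limma FDR 5.57e-11) and 12.4-fold higher in null mice (log2FC 3.63, FDR 1.59e-10), on the log2(FPKM + 0.1) scale. This was the largest change of the 9 in both genotypes. Lamc3 (ENSMUSG00000026840.8) lies on the plus strand of GRCm38 chromosome 2 from 31887291 to 31946539.

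Lamc1 encodes γ1, the γ chain of most laminins, without which basement membranes do not form in the embryo. Its levels were 2.64, 2.85, 2.97, 2.37 and 2.3 FPKM in NDWT 1 to 5 and 9.35, 7.73, 6.83, 4.93 and 7.11 in HFWT 1 to 5. They were 2.08, 2.9, 2.8, 2.55 and 2.62 FPKM in NDKO 1 to 5 and 6.65, 6.47, 7.29, 6.25 and 8.82 in HFKO 1 to 5. HFWT4 was the lowest of the CDAHFD libraries and was still above every control library. The increase was 2.63-fold in WT (log2FC 1.40, SE 0.14, limma FDR 3.01e-08) and 2.67-fold in null mice (log2FC 1.42, FDR 2.85e-08). Lamc1 (ENSMUSG00000026478.8, chromosome 1, 153218922 to 153332786, minus strand) thus rose less than Lamc3. Of the γ sum Lamc1 + Lamc3, Lamc3 made up 15% ± 3.29 in NDWT and 52.6% ± 8.15 in HFWT, and 15.9% ± 2.22 in NDKO and 50.2% ± 8.34 in HFKO. Both differences had a two-sided exact permutation p = 0.00794, the smallest that 5 against 5 libraries can give, and 0.0159 after Benjamini-Hochberg adjustment over the 32 shares tested.

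Among the β chains, Lamb1 and Lamb2 rose and Lamb3 fell. Lamb1 encodes β1, the β chain of most embryonic and many adult laminins. It stood at 1.22, 1.29, 1.21, 0.952 and 1.19 FPKM in NDWT 1 to 5 and 5.83, 5.65, 4.39, 2.91 and 4.66 in HFWT 1 to 5. It stood at 1.5, 1.58, 1.45, 1.45 and 1.51 FPKM in NDKO 1 to 5 and 4.14, 3.76, 4.79, 3.98 and 5.31 in HFKO 1 to 5. As with Lamc1, HFWT4 was the low library on CDAHFD and lay above all control libraries. The rise was 3.68-fold in WT (log2FC 1.88, SE 0.14, limma FDR 9.76e-10) and 2.80-fold in null mice (log2FC 1.48, FDR 2.92e-08). Lamb1 (ENSMUSG00000002900.9) lies on chromosome 12 from 31265234 to 31329644 on the plus strand.

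Lamb2 encodes β2, which is concentrated at the neuromuscular junction, in the kidney glomerulus and in vessel walls. Its FPKM were 1.69, 1.81, 1.38, 1.72 and 1.6 in NDWT 1 to 5 and 9.46, 8.38, 4.96, 6.92 and 5.46 in HFWT 1 to 5. In NDKO 1 to 5 they were 1.78, 1.75, 1.94, 1.38 and 1.61, and in HFKO 1 to 5 they were 5.94, 3.71, 7.45, 5.43 and 7.33. The diets did not overlap, and HFKO2 and HFWT3 were the lowest of their CDAHFD groups. Lamb2 rose 4.00-fold in WT (log2FC 2.00, SE 0.18, limma FDR 8.84e-09) and 3.31-fold in null mice (log2FC 1.73, FDR 7.39e-08). It is located on chromosome 9 from 108479862 to 108490530 on the plus strand (ENSMUSG00000052911.4).

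Lamb3 encodes β3, a chain of the laminin that anchors hemidesmosomes in skin and other epithelia, where its loss causes junctional epidermolysis bullosa. It was the most abundant of the 9 chains in every control library and ranked 7 of 9 by mean in both CDAHFD groups. Its FPKM were 13.7, 4.41, 10.2, 8.29 and 11.2 in NDWT 1 to 5 and 2.07, 1.98, 1.36, 2.14 and 1.46 in HFWT 1 to 5. They were 6.56, 9.76, 13.7, 6.76 and 4.53 in NDKO 1 to 5 and 1.19, 1.54, 1.94, 1.45 and 1.9 in HFKO 1 to 5. The control libraries spread widely, from NDWT2 and NDKO5 at the low end to NDWT1 and NDKO3 at the high end, and all were above every CDAHFD library. Lamb3 was 4.83-fold lower on CDAHFD in WT (log2FC -2.27, SE 0.28, limma FDR 5.15e-07) and 4.64-fold lower in null mice (log2FC -2.22, FDR 7.99e-07).

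In the table, Lamb3 (ENSMUSG00000026639.12) spans 193301957 to 193343878 on the plus strand of chromosome 1. GENCODE M21 on the same build lists 9 transcripts for it, of which 5 begin upstream of that span, the first 94258 bases upstream, and 1 of these 5 reaches the 3′ end. The printed Lamb3 stretch therefore covers the start nearest to the table's gene and not the far upstream ones, and FPKM per gene does not say which start was used. G0s2, which encodes an inhibitor of the lipase that breaks down stored triglyceride, lies inside the longest of these transcripts on the opposite strand, at 193272161 to 193273188, and no exon of Lamb3 overlaps it. G0s2 was 415 FPKM in NDWT, 62.9 in HFWT, 321 in NDKO and 59.5 in HFKO, and was called lower on CDAHFD in WT (log2FC -2.70, limma FDR 1.90e-06) and in null mice (log2FC -2.16, FDR 2.97e-05). G0s2 was chosen for this position after its values were seen.

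The makeup of the β class differed between diets. Lamb1, Lamb2 and Lamb3 together came to 12.4 ± 3.41 FPKM in NDWT, 13.5 ± 2.96 in HFWT, 11.5 ± 3.71 in NDKO and 12.0 ± 2.35 in HFKO. Lamb3 made up 75.3% ± 9.60 of this sum in NDWT and 13.5% ± 2.46 in HFWT, and 70.2% ± 7.91 in NDKO and 13.5% ± 2.32 in HFKO. Lamb2 went from 14.5% ± 5.83 to 51.6% ± 4.86 in WT and from 15.7% ± 3.89 to 49.4% ± 4.75 in null mice. Lamb1 went from 10.2% ± 3.94 to 34.9% ± 6.69 and from 14.1% ± 4.16 to 37.1% ± 2.88. Each of these 6 differences had an exact permutation p = 0.00794 (two-sided, adjusted 0.0159). The shares of a class add up to a fixed total in each library, so these differences are not separate results. The α sum instead went from 1.89 ± 0.152 to 7.08 ± 1.51 FPKM in WT and from 1.78 ± 0.334 to 6.15 ± 1.27 in null mice, and the γ sum from 3.09 ± 0.286 to 15.4 ± 3.83 and from 3.08 ± 0.324 to 14.7 ± 3.65. These sums were not tested.

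**Figure D2:**
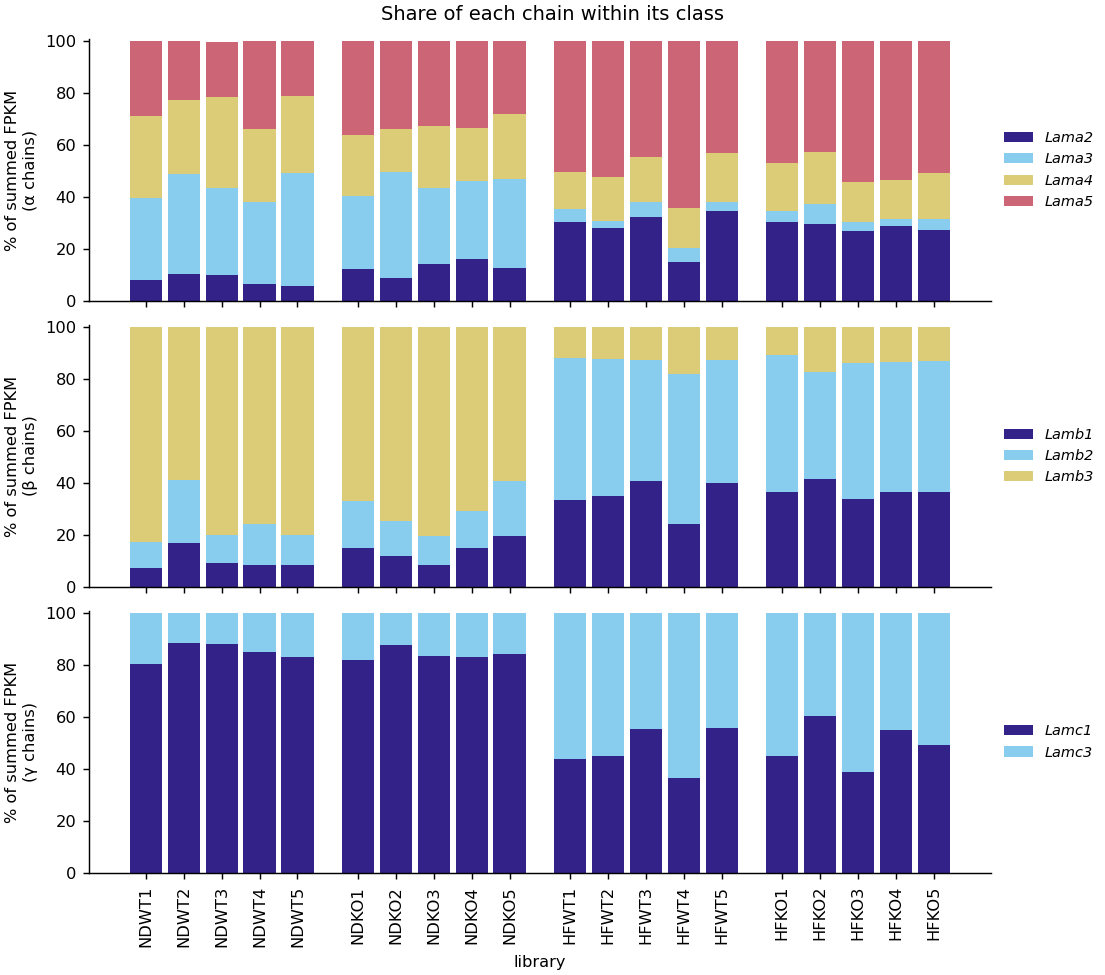
Share of each chain gene in the summed FPKM of its class (percent), with 1 bar per library for the 4 α, 3 β and 2 γ genes. Lamb3 takes most of each β bar in the control libraries, with means of 75.3% in NDWT and 70.2% in NDKO, and a small part on CDAHFD, 13.5% in HFWT and in HFKO.

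Of the α chains, Lama2 and Lama5 rose steeply, Lama4 rose less and Lama3 fell. Lama2 encodes the α chain of muscle and peripheral nerve, whose loss causes a congenital muscular dystrophy. It was 0.159, 0.204, 0.179, 0.12 and 0.124 FPKM in NDWT 1 to 5 and 2.66, 2.44, 1.78, 1.01 and 2.04 in HFWT 1 to 5. It was 0.24, 0.127, 0.259, 0.245 and 0.285 FPKM in NDKO 1 to 5 and 1.87, 1.34, 1.83, 1.59 and 2.17 in HFKO 1 to 5. Lama2 was the lowest of the 9 chains by group mean in both control groups, and every CDAHFD library exceeded every control library. It was 7.81-fold higher in WT (log2FC 2.96, SE 0.22, limma FDR 4.70e-10) and 5.64-fold higher in null mice (log2FC 2.5, FDR 6.12e-09). Lama2 (ENSMUSG00000019899.9) lies on chromosome 10 from 26981288 to 27616942 on the minus strand.

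Lama5 encodes the α chain most widely used in adult epithelia and vessels. Its FPKM were 0.547, 0.431, 0.375, 0.594 and 0.445 in NDWT 1 to 5 and 4.37, 4.48, 2.43, 4.31 and 2.53 in HFWT 1 to 5. In NDKO 1 to 5 they were 0.702, 0.479, 0.592, 0.5 and 0.625, and in HFKO 1 to 5 2.89, 1.91, 3.67, 2.92 and 3.97. HFWT3 and HFWT5 were low in HFWT and HFKO2 was low in HFKO, all well above the control range. The increase was 6.28-fold in WT (log2FC 2.65, SE 0.20, limma FDR 8.07e-10) and 4.57-fold in null mice (log2FC 2.19, FDR 1.30e-08). Lama5 (ENSMUSG00000015647.9) lies on chromosome 2 from 180176373 to 180225859 on the minus strand.

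Lama4 encodes the α chain of vascular endothelium, which is also made by adipocytes and muscle. Its FPKM were 0.595, 0.541, 0.61, 0.493 and 0.627 in NDWT 1 to 5 and 1.23, 1.47, 0.961, 1.03 and 1.09 in HFWT 1 to 5. They were 0.454, 0.233, 0.434, 0.301 and 0.562 in NDKO 1 to 5 and 1.11, 0.911, 1.04, 0.822 and 1.39 in HFKO 1 to 5. The diets did not overlap in either genotype, and NDKO2 and NDKO4 were the low control libraries. Lama4 rose 1.85-fold in WT (log2FC 0.89, SE 0.18, limma FDR 0.000177) and 2.36-fold in null mice (log2FC 1.24, FDR 4.48e-06). Relative to the median of all genes these log2FC were 0.36 and 0.74. With quantile normalization the value in WT was -0.13 (FDR 0.503), and with median of ratios scaling 0.39 (FDR 0.0565), so neither the call nor the direction of Lama4 in WT held under every scaling. Lama4 (ENSMUSG00000019846.5) is on chromosome 10 from 38965515 to 39110188 on the plus strand.

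Lama3 encodes the α chain that joins β3 in the hemidesmosome laminin. Its FPKM were 0.59, 0.73, 0.587, 0.552 and 0.93 in NDWT 1 to 5 and 0.442, 0.221, 0.305, 0.383 and 0.207 in HFWT 1 to 5. They were 0.548, 0.579, 0.538, 0.448 and 0.76 in NDKO 1 to 5 and 0.267, 0.34, 0.242, 0.152 and 0.33 in HFKO 1 to 5. Every CDAHFD library was below every control library of its genotype. Lama3 was 1.91-fold lower in WT (log2FC -0.93, SE 0.21, limma FDR 0.000537) and 1.86-fold lower in null mice (log2FC -0.89, FDR 0.000817). With a pseudocount of 1 in place of 0.1 the log2FC were -0.35 and -0.31 and no longer passed the fold threshold. Lama3 (ENSMUSG00000024421.10) is on chromosome 18 from 12334024 to 12583013 on the plus strand. Lama3 and Lamb3, which share a trimer, thus both fell in both genotypes.

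The makeup of the α class also differed between diets. Lama5 held 25.5% ± 5.61 of the 4 α genes in NDWT and 50.8% ± 8.30 in HFWT, and 32.8% ± 2.98 in NDKO and 49.5% ± 4.83 in HFKO. Lama2 held 8.40% ± 2.10 and 28.2% ± 7.77 in WT, and 12.9% ± 2.73 and 28.8% ± 1.47 in null mice. Lama3 went from 35.6% ± 5.36 to 4.48% ± 1.37 and from 32.5% ± 5.14 to 4.49% ± 1.82. Each of these 6 differences had an exact permutation p = 0.00794 (adjusted 0.0159). As in the β class, the shares are bound to one total and are not separate results. The share of Lama4 fell from 30.4% ± 2.80 to 16.5% ± 1.78 in WT (exact permutation p = 0.00794, adjusted 0.0159), and was 21.8% ± 3.51 in NDKO and 17.3% ± 2.16 in HFKO (exact permutation p = 0.0556, adjusted 0.0988). With Lama1 counted in the α class the sign of this last difference turned, to 0.404 percentage points. Lama1, the α gene of the early embryo and not among the 9, was 0.839 FPKM in NDWT, 0.800 in HFWT, 0.951 in NDKO and 1.07 in HFKO, with a limma log2FC for diet of -0.11 (95% interval -0.54 to 0.32, FDR 0.654) in WT and 0.14 (-0.29 to 0.57, FDR 0.545) in null mice.

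The size of these changes depended on the pseudocount and the scaling. Lama2, the chain with the lowest control level, had a log2FC in WT of 1.34 with a pseudocount of 1, 3.53 with 0.01 and 1.98 with quantile normalization, beside 2.96, and the ratio of its mean FPKM was 12.6. In null mice these values were 1.16, 2.90 and 1.61, with a ratio of 7.61. With a pseudocount of 1 the log2FC in WT was 2.60 for Lamc3 and 1.62 for Lama5. With quantile normalization it was 3.05 for Lamc3, 1.74 for Lama5, 1.28 for Lamb2, 1.07 for Lamb1, 0.74 for Lamc1, -1.92 for Lama3 and -3.00 for Lamb3. All of these kept their direction, and Lama4 in WT did not.

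The order of the chains by level differed between diets. In NDWT it ran from Lamb3 through Lamc1, Lamb2 and Lamb1, whose ranges did not overlap from each to the next, to Lama3, Lama4, Lama5 and Lamc3, which overlapped from each to the next, and ended with Lama2, below all of them. NDKO had the same first 4, though Lamb2 and Lamb1 overlapped there. In HFWT and in HFKO the order was Lamc3, Lamc1, Lamb2, Lamb1, Lama5, Lama2, Lamb3, Lama4 and Lama3. On CDAHFD the ranges of all neighbours overlapped except those of Lama4 and Lama3.

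None of the 9 genes was called between genotypes on either diet, where 4.77% of all genes on control diet and 0.496% on CDAHFD were called in either direction. For the interaction, the genotype difference on CDAHFD less that on control diet, no member was called against 0.647% of all genes. At an unadjusted p under 0.05, 2 of 9 members differed on control diet, against 27.3% of all genes, and none on CDAHFD, against 17.2%, or in the interaction, against 15.1%. The groups did not overlap for 1 member on control diet, Lamb1, against 9.03% of all genes, and for 0 on CDAHFD, against 4.98%. The median log2FC of the 9 was 0.04 on control diet and -0.14 on CDAHFD, beside -0.07 and -0.10 for all genes.

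Lamb1 was 1.17 ± 0.128 FPKM in NDWT and 1.5 ± 0.0529 in NDKO, and all 5 NDKO libraries were above all 5 NDWT libraries. The log2FC was 0.33 (95% interval 0.03 to 0.64, unadjusted p = 0.0326, limma FDR 0.139). Lama4 was 0.573 ± 0.0552 FPKM in NDWT and 0.397 ± 0.130 in NDKO, a log2FC of -0.48 (-0.85 to -0.1, unadjusted p = 0.0151, limma FDR 0.0861). Without NDKO5 the log2FC of Lama4 was -0.59 and its limma FDR 0.0326, which passed both thresholds. On CDAHFD neither gene stood out, with log2FC of -0.06 (-0.37 to 0.24) for Lamb1 and -0.13 (-0.5 to 0.25) for Lama4. The difference between diets in the genotype effect was -0.40 (-0.82 to 0.03, limma FDR 0.376) for Lamb1 and 0.35 (-0.18 to 0.88, FDR 0.560) for Lama4.

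On CDAHFD the genotype differences of the genes that responded most to diet had intervals that included 0. Lama2 was 1.99 ± 0.644 FPKM in HFWT and 1.76 ± 0.312 in HFKO (log2FC -0.12, 95% interval -0.57 to 0.34, limma FDR 0.811). Lamc3 was 8.19 ± 2.72 FPKM in HFWT and 7.56 ± 2.93 in HFKO (log2FC -0.14, 95% interval -0.64 to 0.36, limma FDR 0.789). Lama5 was 3.63 ± 1.05 and 3.07 ± 0.801 (log2FC -0.22, -0.64 to 0.20, FDR 0.592), and Lamb2 was 7.04 ± 1.90 and 5.97 ± 1.54 (log2FC -0.23, -0.61 to 0.14, FDR 0.522). Lamb3 was 1.80 ± 0.365 and 1.6 ± 0.314 (log2FC -0.16, -0.74 to 0.43, FDR 0.800). Of the cell type markers described below, 2 were called between genotypes, both on control diet, where 4.77% of all genes were called. These were Cps1, 1 of 5 hepatocyte markers, higher in NDKO (log2FC 1.1, limma FDR 0.000949), and Acta2, 1 of 9 stellate cell and portal fibroblast markers, lower (log2FC -1.13, limma FDR 0.0155). Their part in the laminin values was not tested. Because Thbs1 itself was not lower in the libraries labelled NDKO, these intervals apply to the labels as given.

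Within the α class on control diet, the share of Lama4 was lower in NDKO than in NDWT, 21.8% against 30.4% (exact permutation p = 0.00794, adjusted 0.0159), with no overlap between the groups. The share of Lama2 was 12.9% against 8.40% (exact permutation p = 0.0238, adjusted 0.0448), but in 9 of the 10 repeats with 1 of these libraries left out the adjusted p rose to between 0.0598 and 0.0896, and with Lama1 counted in the class it was 0.0598. No share passed the test between HFKO and HFWT, where the lowest exact permutation p was 0.492, for Lamb2 at 49.4% and 51.6%.

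**Figure D3:**
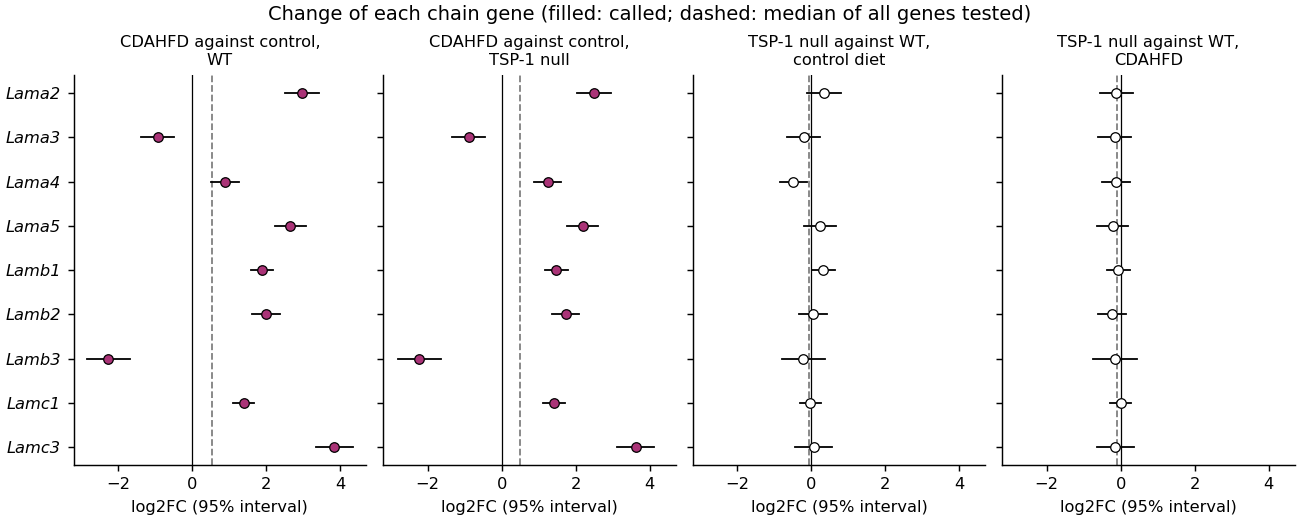
log2FC of each laminin chain gene with its 95% interval in the 4 comparisons, filled where called, with a dashed line at the median of all 14524 genes tested. All 9 genes are called in both diet comparisons, from -2.27 for Lamb3 to 3.84 for Lamc3 in WT, and none in the genotype comparisons, where the intervals of Lamb1 and Lama4 on control diet leave out 0 and the others include it.

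The other components of basement membranes mostly rose with the laminins. Of 20 basement membrane genes fixed by name, 17 were tested, and 14 rose in WT and 15 in null mice, 14 of them in both, with none of the 17 lower. With median of ratios scaling 12 rose and 1, Col18a1, fell in each genotype. These counts depend on the filter of 0.5 FPKM. Col4a5, Col4a6, Fbln1 and Fbln2 passed it only through CDAHFD libraries, and Npnt, at 0.402 FPKM in NDWT and 0.112 in HFWT, did not pass. Without the filter, 16 of the 20 were called higher and 1 lower in WT, and 17 and 0 in null mice. The median log2FC of the 17 was 2.19 in WT and 2.14 in null mice, beside 0.53 and 0.50 for all genes. Among all genes tested, 44.1% were called higher in WT and 41.9% in null mice. Smoc2, a matricellular calcium-binding protein, rose from 1.76 ± 0.368 FPKM in NDWT to 16.1 ± 3.66 in HFWT (log2FC 3.12, limma FDR 1.31e-12), and Sparc, which binds collagen IV, from 15.7 ± 1.30 to 93.5 ± 24.1 (log2FC 2.53, FDR 7.09e-12). Nid1, which links laminin γ1 to collagen IV, rose from 3.75 ± 0.238 to 20.9 ± 4.50 FPKM (log2FC 2.42, limma FDR 2.92e-11). Col4a5, a collagen IV chain, rose from 0.157 ± 0.0544 to 2.53 ± 0.576 FPKM (log2FC 3.35, limma FDR 4.86e-11). In TSP-1 null mice their log2FC were 2.55, 2.64, 2.49 and 3.32. Not called in WT were Col18a1 (log2FC -0.20, limma FDR 0.0555), Smoc1 (0.07, FDR 0.473) and Nid2 (0.33, FDR 0.133), named after their values were seen, and Col18a1 was the most abundant gene of the list. Between genotypes, 1 of the 17, Smoc2, was called higher in NDKO than in NDWT (log2FC 0.63, limma FDR 0.00743), where 4.77% of all genes were called. With a pseudocount of 1 Smoc2 was not called. No other gene of the list was called in either genotype comparison, and 0.496% of all genes were called on CDAHFD.

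Of 11 laminin receptor genes, 10 were tested and 7 rose in each genotype, 6 of them in both. The median log2FC of the 10 was 0.84 in WT and 1.02 in null mice, beside 0.53 and 0.50 for all genes. Among all genes tested, 44.1% were called higher in WT and 41.9% in null mice. Itga6 and Itgb4, which pair as the hemidesmosome integrin, rose from 0.249 ± 0.0353 to 1.69 ± 0.381 FPKM (log2FC 2.34, limma FDR 4.22e-10) and from 0.165 ± 0.0274 to 1.76 ± 0.588 (log2FC 2.76, FDR 1.46e-09) in WT. Bcam, a receptor for laminin α5, rose from 1.42 ± 0.458 to 8.72 ± 3.00 FPKM (log2FC 2.53, limma FDR 9.50e-09), and Itga3, an integrin chain of epithelia, from 1.43 ± 0.0697 to 5.70 ± 2.01 (log2FC 1.85, FDR 1.77e-08). In TSP-1 null mice the log2FC were 2.27, 2.45, 2.19 and 1.72 in this order. Rpsa, the most abundant of the list, was called in WT (log2FC 0.60) but not in null mice (0.49). Itga7 (0.16), Itgb1 (0.51) and Dag1 (0.48) were not called in WT. Rpsa and these genes were named after their values were seen. With median of ratios scaling, 4 of the 10 were called in WT and 5 in null mice instead of 7, and with quantile normalization 6 rose and 1 fell in WT. No receptor gene was called between genotypes.

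**Figure D4:**
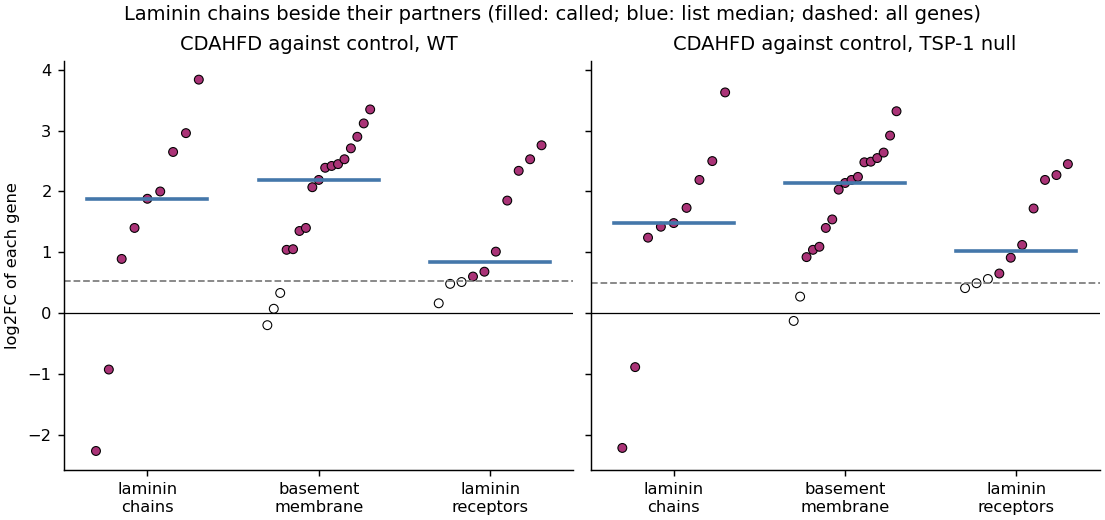
log2FC of CDAHFD against control diet for each tested gene of 3 lists, the 9 laminin chains, 17 basement membrane genes and 10 laminin receptors, filled where called, with a blue line at each list's median and a dashed line at the median of all genes. List medians in WT were 1.88, 2.19 and 0.84, and the genes below -0.5 are Lama3 and Lamb3.

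Markers of several cell types moved with diet beside the laminins. For comparison, 44.1% of all genes tested were called higher in WT and 41.9% in null mice. The 9 markers of stellate cells and portal fibroblasts all rose in both genotypes, and their summed level ranged from 16.9 to 24.5 FPKM in NDWT, 98.1 to 197.3 in HFWT, 21 to 23.5 in NDKO and 103.1 to 162.3 in HFKO. All 6 cholangiocyte markers rose, from 15.2 to 18.1 FPKM in NDWT to 294.3 to 492.5 in HFWT, and from 12.5 to 15.6 in NDKO to 183.3 to 364.6 in HFKO. All 3 tested of 5 vascular smooth muscle markers rose in both genotypes. The sum of all 5 was 4.14 to 5.21 FPKM in NDWT, 15.2 to 29.4 in HFWT, 4.59 to 5.65 in NDKO and 16.6 to 25.6 in HFKO. Of 6 vascular endothelial markers 5 were tested, and 3 rose in WT and 4 in null mice. The sum of all 6 was 39.1 to 58.4 FPKM in NDWT, 58.0 to 113.2 in HFWT, 43.7 to 60.4 in NDKO and 87.3 to 120.9 in HFKO. Of 6 sinusoidal endothelial markers, 1 rose in WT and 2 in null mice (sums 60.7 to 63.9, 60.0 to 83.7, 47.3 to 60.1 and 59.4 to 82.4 FPKM in the same order). The median log2FC of the sinusoidal markers was 0.17 in WT and 0.25 in null mice, below the 0.53 and 0.50 of all genes. That of the vascular markers was 0.98 and 0.97. Of 4 macrophage markers, 3 rose and Clec4f, a Kupffer cell lectin, fell in both (sums 82.0 to 115.0, 352.1 to 492.7, 77.4 to 126.2 and 252.1 to 468.0 FPKM). The 5 hepatocyte markers, with Alb the highest, summed to 32192.9 to 39560.3 FPKM in NDWT, 24799.2 to 36258.2 in HFWT, 35975.7 to 42973.4 in NDKO and 33026.0 to 44126.0 in HFKO, and 1 of them, Cps1, was called lower in null mice. A summed level weighs its most abundant gene most. Over all libraries this was Col1a1 for stellate cells and portal fibroblasts, Spp1 for cholangiocytes, and Tagln for vascular smooth muscle. It was Plvap for vascular endothelium, Clec4g for sinusoidal endothelium and Gpnmb for macrophages. Des was counted both in the stellate cell and in the smooth muscle list. No marker was at 0 in a whole group, and the part of any cell type in the laminin results was not tested. In whole tissue, fewer cells of a type and less RNA per cell cannot be told apart.

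Within the CDAHFD groups, Lamc1 varied with Lamb1 and Lama2 from mouse to mouse. With group means removed and n = 10 libraries, log2 levels of Lamc1 and Lamb1 had Pearson's r = 0.96 (permutation p = 2e-05, adjusted 0.0002 over 10 relations) and Spearman's rho = 0.98 (permutation p = 4e-05, adjusted 0.0004), and r was 0.91 without the 2 libraries farthest from the median of Lamc1. For Lamc1 and Lama2, r was 0.93 (permutation p = 7e-05, adjusted 0.00035) and rho 0.92 (permutation p = 0.00041, adjusted 0.00205), and r was 0.80 without these 2 libraries. The relation to Lama4 had r = 0.66 (permutation p = 0.0376, adjusted 0.110) and rho = 0.78 (permutation p = 0.0105, adjusted 0.0350), and r was 0.87 without these 2 libraries. For Lamb2 and Lama5, r with Lamc1 was 0.52 (permutation p = 0.125, adjusted 0.249) and 0.29 (permutation p = 0.413, adjusted 0.567), and 0.65 and 0.66 without the 2 farthest libraries (permutation p = 0.0754 and 0.0728). On control diet no pair passed the adjustment, with r = 0.43 for Lamb1, which was 0.79 without the 2 farthest libraries (permutation p = 0.0199, unadjusted), 0.09 for Lama2 (0.05 without them), and -0.65 for Lama5 (permutation p = 0.0439, adjusted 0.110; -0.76 without them). The points share their libraries, and the difference between diets in these relations was not tested.

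**Figure D5:**
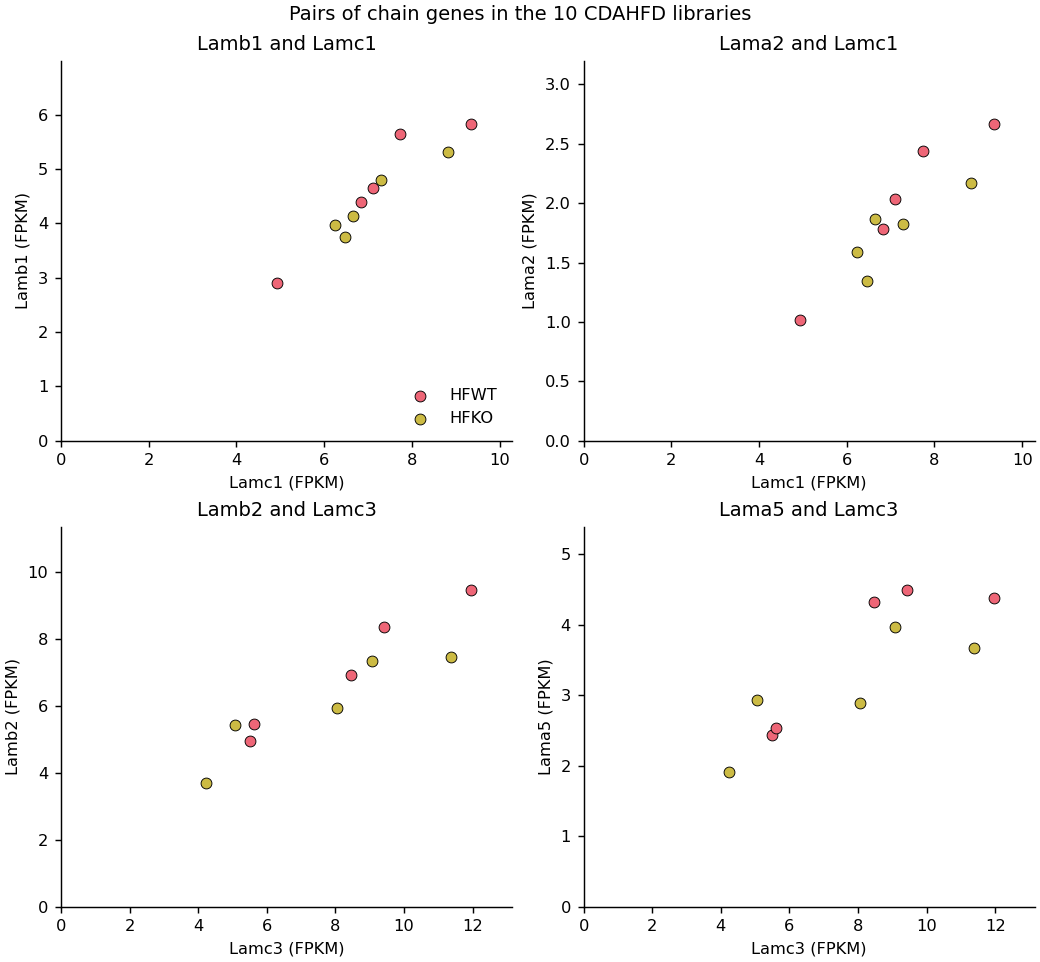
FPKM of pairs of laminin chain genes in the 10 CDAHFD libraries, 5 HFWT and 5 HFKO, with 1 point per library. Lamb1 and Lama2 are plotted against Lamc1, with r = 0.96 and 0.93 after removal of group means, and Lamb2 and Lama5 against Lamc3, with r = 0.95 and 0.88.

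HFWT4 shows how the chains could part within a single liver. It had the lowest Lamc1 (4.93 FPKM), Lamb1 (2.91) and Lama2 (1.01) of the 10 CDAHFD libraries, yet its Lama5 of 4.31 FPKM was the third highest and its Lamb3 of 2.14 the highest. HFKO2 was low in Lamc3 (4.24 FPKM), Lamb2 (3.71) and Lama5 (1.91), with Lamc1 at 6.47 FPKM.

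Over all 20 libraries with group means removed, the genes whose log2 level was most like that of Lamc1 were Ids, a lysosomal sulfatase that degrades heparan and dermatan sulfate (r = 0.887), Pcdh7, a protocadherin (0.876), and Col5a1, a chain of the fibril-forming collagen V (0.874). Lamb1 had r = 0.844 by the same measure. These genes were picked for their correlation, so no test was made.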

How the data were processed

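The authors sequenced poly(A) RNA of snap-frozen liver and processed the reads with QuickRNASeq. The submitters' processing notes list STAR 2.5.2, featureCounts of Subread 1.5.1 and the build GRCh38, whereas the coordinates in the table are mouse GRCm38. The lobe is the right medial in the series text but the right lateral in the paper. The deposited values are FPKM for 38924 genes in 20 libraries (15641545 to 23276322 fragments), from which fragments were recovered as whole numbers. Floors cover counting error only.

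Groups followed the labels. The 14524 genes over 0.5 FPKM in 5 or more libraries were fitted with limma 3.58.1 in R 4.3.3 (1 mean per group, eBayes with trend, two-sided). The fit was tested on simulated data. Class shares were compared with exact permutation tests over 252 arrangements, and correlations with 100000 permutations (Python 3.11.15, scipy 1.17.1). The members and the gene lists were chosen with earlier results of these data known. Named list genes are the 4 lowest in FDR for diet in WT. Genes most like Lamc1 are the 3 highest in r. Alternatives were pseudocounts, filters, scalings, other limma settings, a replicate block and each library left out. Promoters of Lama4, Lamc1 and Lamc3 were not analysed here, and 1 further gene is not reported here.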

Additional observations from a re-analysis of the deposited data

Results flagged for a closer look

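Lama2 in NDKO2 was 0.127 FPKM, while the other 4 NDKO libraries lay between 0.240 and 0.285 FPKM. Its gap to the nearest library, divided by the range of the group, exceeded Dixon's 95% critical value of 0.71 for 5 samples. It was the only such value among 36 groups, 9 genes in 4 groups each, and chance flags about 1 in 20 groups. Without NDKO2 the log2FC of Lama2 between NDKO and NDWT was 0.48 (limma FDR 0.158), against 0.35 (FDR 0.311) with it.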

How the results depend on the processing

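The 9 laminin genes stayed called in both diet comparisons under each library left out (9 to 9) and under the replicate block (9 and 9). Same-numbered libraries correlated between -0.133 and 0.081, which shows no pairing in expression, and no label says whether the numbers pair mice. The block changed no call of the members or lists. With a pseudocount of 1, 0 basement membrane genes were called between genotypes on control diet instead of 1, and with median of ratios scaling 4 laminin receptors were called for diet in WT instead of 7. Leaving out 1 library gave 0 to 1 laminin genes between genotypes on control diet, the 1 being Lama4 without NDKO5. Beside the Lama4 and Lama3 values given above, Lama4 lost its call with a pseudocount of 1 in WT (log2FC 0.45) and in null mice (0.56), and with quantile normalization in null mice (0.35, FDR 0.0685).

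The other signs that turned belonged to values that were not called. With quantile normalization the log2FC between HFKO and HFWT was 0.03 for Lama2, 0.02 for Lama3, 0.03 for Lama4, 0.06 for Lamb1 and 0.10 for Lamc1, and that of Lamc1 on control diet 0.05. The called Lama4 in WT also turned, to -0.13. With median of ratios scaling these were 0.04 for Lamb1 and 0.10 for Lamc1 on CDAHFD, and 0.05 for Lamc1 on control diet. The median of all genes was at 0.53 and 0.50 for diet without these scalings. With Lama1 counted in the α class, the share of Lama4 differed by 0.404 percentage points between HFKO and NDKO, the shares between HFKO and HFWT by -0.754 for Lama2, -0.265 for Lama3 and -0.176 for Lama4, and that of Lama2 between NDKO and NDWT by 2.61. Leaving out 1 library gave share differences between NDKO and NDWT of 3.67 to 5.53 for Lama2 and -0.147 to 3.62 for Lamb2. Between HFKO and HFWT they were -2.79 to 2.15 for Lama2, -0.762 to 0.433 for Lama3, -3.19 to 2.02 for Lama5, -0.439 to 3.72 for Lamb1, -0.825 to 1.15 for Lamb3 and -5.11 to 0.224 for Lamc3. The log2FC ranged from -0.33 to 0.00 for Lama2, -0.22 to 0.02 for Lamb1, -0.13 to 0.10 for Lamc1 and -0.31 to 0.04 for Lamc3 on CDAHFD, from -0.02 to 0.11 for Lamb2 and -0.07 to 0.05 for Lamc1 on control diet, and in the interaction from -0.07 to 0.17 for Lama3, -0.13 to 0.31 for Lamb3 and -0.11 to 0.12 for Lamc1. The cause was not tested. Depth limits the control values of Lama2, with 20 to 56 fragments per library.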

Other observations

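A further set of chains varied together on CDAHFD, chosen for testing after the values were seen. With group means removed and n = 10 libraries, Lamc3 and Lamb2 had r = 0.95 (permutation p = 4e-05, adjusted 0.0004 over 10 relations) and rho = 0.98 (permutation p = 2e-05, adjusted 0.0002), and r was 0.92 without the 2 libraries farthest from the median of Lamc3. Lamc3 and Lama5 had r = 0.88 (permutation p = 0.00161, adjusted 0.00805) and rho = 0.77 (permutation p = 0.0124, adjusted 0.062), and r was 0.78 without these 2 libraries. With Lama2, Lamb1 and Lamc1, Lamc3 had r of 0.44, 0.47 and 0.46 (adjusted permutation p = 0.417 each). On control diet r with Lamc3 lay between -0.15 for Lamc1 and 0.39 for Lama5, and none passed the adjustment.

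Lamb3 and G0s2, also paired after their values were seen, had r = 0.74 on control diet (n = 10, permutation p = 0.0152, adjusted 0.0305 over 2 relations) and rho = 0.67 (permutation p = 0.0384, adjusted 0.0767). Without the 2 libraries farthest from the median of G0s2, r was 0.48 (permutation p = 0.234), so the relation did not pass without them. On CDAHFD r was 0.36 (permutation p = 0.296), and 0.50 without the 2 farthest libraries (permutation p = 0.212). The change in r when libraries were left out was not tested.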
